A study of Homo sapiens with 2 samples.

Results

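The mRNAs of 10 glycolytic enzymes were examined for contacts with YB-1: GAPDH, ENO1, PKM, LDHA, LDHB, ALDOA, PGK1, TPI1, PGAM1 and GPI. YB-1 is an abundant mRNA-binding protein that packs mRNAs into ribonucleoprotein particles and takes part in the control of translation. The members were found by position: a cluster belonged to a gene when it overlapped the gene's span in GENCODE release 44 on the same strand. By this rule Rep.A had 7 clusters in 5 of the 10 genes, out of 1382 clusters in all, and Rep.B had 9 in 6 of them, out of 2011.

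HEK293T, derived from human embryonic kidney and carrying the SV40 large T antigen, was the source of both libraries. The cells were wild type, and there was a single condition with no control library. The cells were fed 100 µM 4-thiouridine for 16 h and irradiated at 365 nm with 0.15 J/cm2, so that proteins in contact with the thiolated RNA were joined to it. RNase T1, an enzyme that cuts RNA behind G, trimmed the RNA, and an antibody to YB-1 recovered the complexes. Crosslinked T bases are read as C, and a cluster is a stretch of reads around such T-to-C transitions. The tables list clusters and give neither RNA levels nor marker genes, so a high mRNA level and strong binding cannot be told apart, and the cell line was not checked against markers.

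Glycolysis splits glucose into pyruvate in the cytosol and yields ATP and NADH on the way. Its lower steps run through small, highly expressed enzymes, and lactate dehydrogenase regenerates the oxidised cofactor from pyruvate. Proliferating lines such as HEK293T express these mRNAs abundantly. Many of them have left processed pseudogenes, which are intronless copies of the mRNA inserted elsewhere in the genome, and short reads from such a copy cannot be told from those of the gene where the sequences are identical.

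The sequences below are the 10 sites to which all results refer, read from hg38 on the transcript strand. Capitals mark CATC and CACC, letters that fall within known YB-1 preferences, searched on the transcript strand only, and overlapping matches run together. GAPDH and LDHB sites are numbered from the 5′ end of the mRNA.
ENO1: ttttctcgcctcactttcCACCaag
GAPDH site 1: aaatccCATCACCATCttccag
GAPDH site 2: aaCATCATCcctgcctctactggcg
GAPDH site 3: aCACCcactcctcCACCtttg
GAPDH site 4: ctggggagtccctgccacactcag
LDHA: tataacttcctggctccttcactg
LDHB site 1: ttccaaacaataagatcactg
LDHB site 2: attaaccagcgttatcaaccag
PGAM1: ccattcctcataccaatatag
TPI1: aaacCATCctctcccttcttaCACCg

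All 10 sites ended in G and 8 of them were preceded by a G in the transcript, where RNase T1 cuts. These are the outermost ends over all clusters of a site. Within the genes, the cluster of GAPDH site 1 was preceded by T, and those of PGAM1 and, in Rep.B, LDHB site 2 by A. Of 591 regions found in both replicates in exons of nuclear protein-coding genes, 96.8% ended in G and 50.6% were preceded by G. CATC or CACC stood in 5 of the 10 sites: ENO1, TPI1 and GAPDH sites 1, 2 and 3. Of the same 591 regions 70.7% held either, and of all windows of 22 nt in the 10 transcripts 18.7%. No site spanned a splice junction. Clusters within the genes could not, since their sequences are continuous in hg38, so only clusters at processed copies could have.

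A region was called reproducible when a cluster of Rep.A and a cluster of Rep.B on the same strand had 1 base or more in common. The 10 genes held 7 reproducible regions in 5 genes: 2 in GAPDH, 2 in LDHB and 1 each in ENO1, LDHA and TPI1. PGAM1 had a cluster in Rep.B alone. PKM, ALDOA, PGK1 and GPI had none in either replicate. Of 20046 protein-coding genes, 3.9% held a cluster in Rep.A, 5.03% in Rep.B and 3.32% a reproducible region, against 5, 6 and 5 of these 10 genes. The 10 were picked with earlier results of these data known, so the shares are set side by side without a test.

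**Figure D1:**
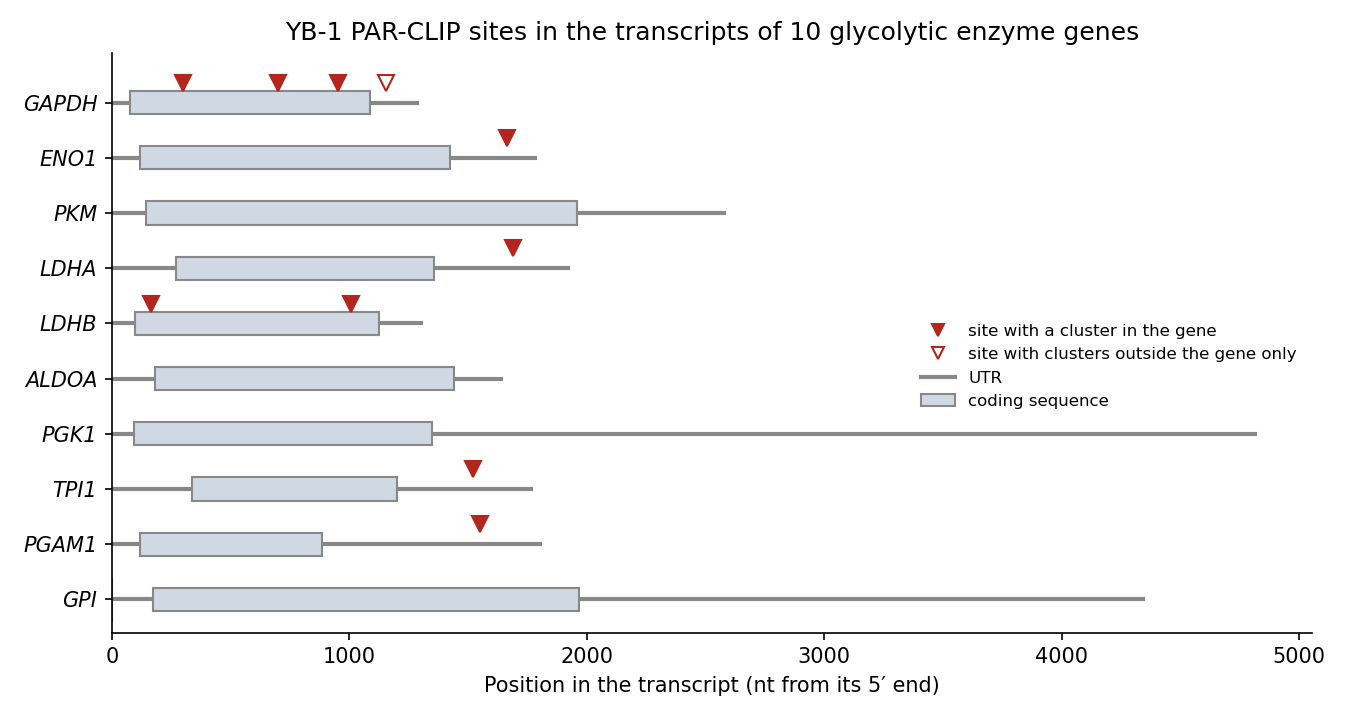
Positions of the 10 sites (triangles) along the selected transcript of each of the 10 genes, in nucleotides from its 5′ end, with coding sequence as boxes and UTRs as lines. Filled triangles are sites with a cluster in the gene itself, and the open triangle, GAPDH site 4, had clusters outside the gene only. Of the sites, 5 lie in coding sequence and 5 in 3′UTRs, and none in a 5′UTR.

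The upper steps of the pathway gave little. GPI, which turns glucose phosphate into fructose phosphate, and ALDOA, the aldolase that splits the sugar bisphosphate, had no cluster. TPI1, which interconverts the triose phosphates made by aldolase, had a reproducible region in its 3′UTR at chr12:6870693-6870718, 310 bases past the stop codon. Its mean coverage, the average number of reads over each base of the cluster, came to 10 in Rep.A, against 19.6 in Rep.B. The cluster had the same ends in both replicates, and no other position in the genome holds its 26 bases. The region was in the lower part of the 591 reproducible regions in exons of nuclear protein-coding genes. It stood above 27.9% of them in Rep.A and 13.9% in Rep.B.

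GAPDH oxidises glyceraldehyde phosphate and produces NADH. It carried 4 sites, more than any other gene of the list, when matches at copies are counted. Within the gene, 2 of them were reproducible regions, as many as in LDHB. Site 2 lay at chr12:6537671-6537695, in exon 8 over codons 205 to 213, and reached a mean coverage of 15.04 in Rep.A, against 38.2 in Rep.B. Its sequence is unique in the genome, and its 2 CATC matches share a C. The clusters had the same ends in both libraries, with 1 position with T-to-C transitions in Rep.A, against 2 in Rep.B. Site 3 lay further down the same exon at chr12:6537924-6537944, over codons 289 to 296. Here the mean coverage was 15 in Rep.A, against 49 in Rep.B. Sites 2 and 3 were close in Rep.A and apart in Rep.B, where site 3 stood above 72.3% of the exonic regions and site 2 above 52.3%. The sequence of site 3 also occurs in GAPDHP40 and GAPDHP64, and clusters lay there in both replicates at coverages between 4 and 7.

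GAPDH site 1 was placed in the gene in Rep.B alone. The cluster lay at chr12:6536771-6536788 in exon 4, 2 bases before the next exon junction, and had the highest coverage in any of the 10 genes, 243 reads per base, which ranked 96 among the 2011 clusters of Rep.B. GAPDH had no cluster at this position in Rep.A. The same 18 bases occur at 13 positions in the genome, 12 of them in pseudogenes. These bases also stand in a transcript of another protein-coding gene, ANKRD46.

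PGK1, which makes the first ATP of the pathway from bisphosphoglycerate, had no cluster. Its transcript is the longest of the 10, at 4812 nt. PGAM1, the phosphoglycerate mutase, had a cluster in its 3′UTR at chr10:97433187-97433204, 663 bases past the stop codon, with a mean coverage of 18.7 in Rep.B and no cluster there in Rep.A.

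ENO1, the enolase that makes phosphoenolpyruvate, had the strongest reproducible region of the list. It lay at chr1:8861104-8861128 on the minus strand, in the 3′UTR 232 bases past the stop codon. Its mean coverage of 54.2 in Rep.A, and of 128 in Rep.B, stood above 98.5% and 98.8% of the exonic regions. Its sequence is unique in the genome. In both replicates it exceeded the other 6 reproducible regions of the list. By summed coverage of reproducible regions, ENO1 ranked 37 of 655 nuclear protein-coding genes in Rep.A and 38 in Rep.B. The genes nearest to it in both replicates, by the distance between their pairs of log2 sums over the 2 samples, were RPL29, a ribosomal protein gene, B2M, the light chain of class I HLA molecules, and SRRM1, a splicing coactivator. Their distances were 0.112, 0.130 and 0.135.

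PKM, the pyruvate kinase that makes the last ATP, had no cluster in either replicate. LDHA and LDHB, the subunits of lactate dehydrogenase, both had regions, and they differed in place. The region of LDHA lay in its 3′UTR at chr11:18407601-18407624, 320 bases past the stop codon, with a mean coverage of 5 in Rep.A, against 5.92 in Rep.B. It was the weakest of the 7 and lay above 6.77% of the exonic regions in Rep.A and 0.846% in Rep.B.

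LDHB had both of its regions in coding sequence. LDHB site 1, at chr12:21654596-21654616 in exon 2 over codons 19 to 26, had a mean coverage of 10.8 in Rep.A and 30.3 in Rep.B. This stretch also lies in the readthrough gene ENSG00000285854, annotated on the same strand, and the reads cannot be assigned to either. LDHB site 2, at chr12:21635626-21635647 in exon 8 over codons 300 to 307, had 6.86 and 8. Its clusters had 2 positions with transitions in each replicate. Neither site held CATC or CACC, and neither did the LDHA site.

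**Figure D2:**
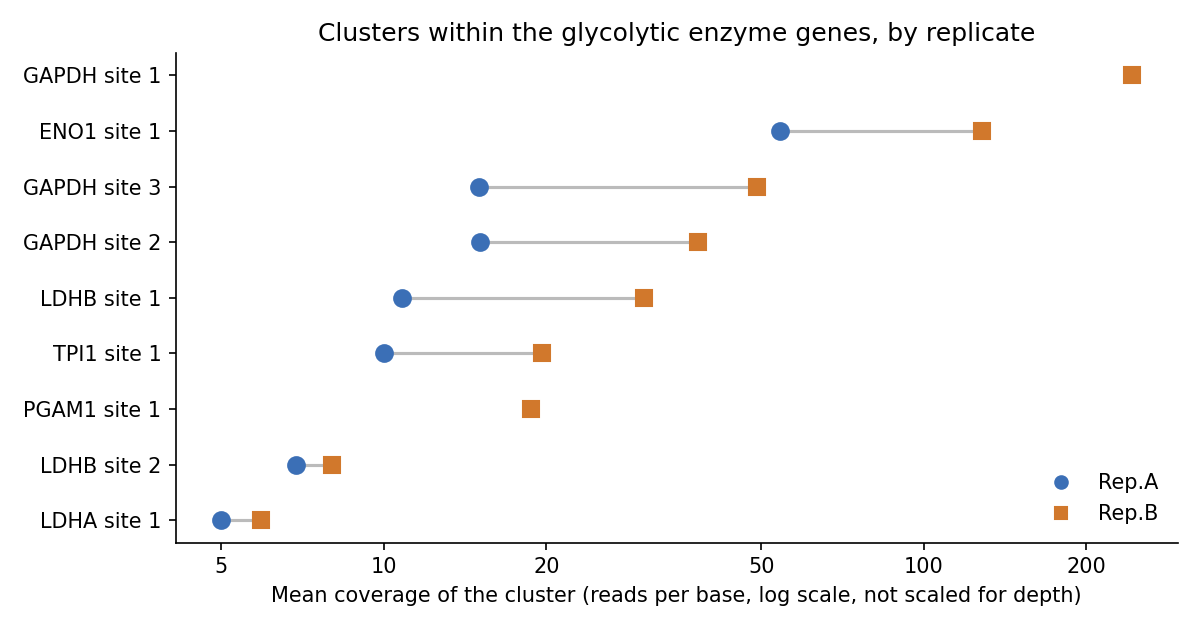
Mean coverage of the clusters within the genes (reads per base, log scale), with Rep.A as circles and Rep.B as squares joined for the same site. Only Rep.B has GAPDH site 1 (243) and PGAM1 (18.7), and LDHA and LDHB site 2 barely differ between the replicates.

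Rep.B was the deeper library, and the deposited coverage is not scaled for it. Over all 1116 pairs of overlapping clusters of the series, the median log2 difference of Rep.B minus Rep.A was 1.38, a 2.60-fold higher coverage. The 7 regions of the list had a median of 1.24 (SD 0.59, n = 7 regions), beside 1.42 (SD 0.55) over the 591 exonic regions. Their log2 differences were 1.71 for GAPDH site 3, 1.49 for LDHB site 1, 1.34 for GAPDH site 2, 1.24 for ENO1, 0.97 for TPI1, 0.24 for LDHA and 0.22 for LDHB site 2. Minus the median of all pairs, they ran from -1.16 to 0.33. LDHB site 2 and LDHA were thus the furthest below the shift of the whole series, by over 1 on the log2 scale. Both have further copies in the genome, unlike ENO1, TPI1, LDHB site 1 and GAPDH site 2. GAPDH site 3, with the highest difference of the 7, has further copies too, and the part of the copies in these differences was not tested.

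**Figure D3:**
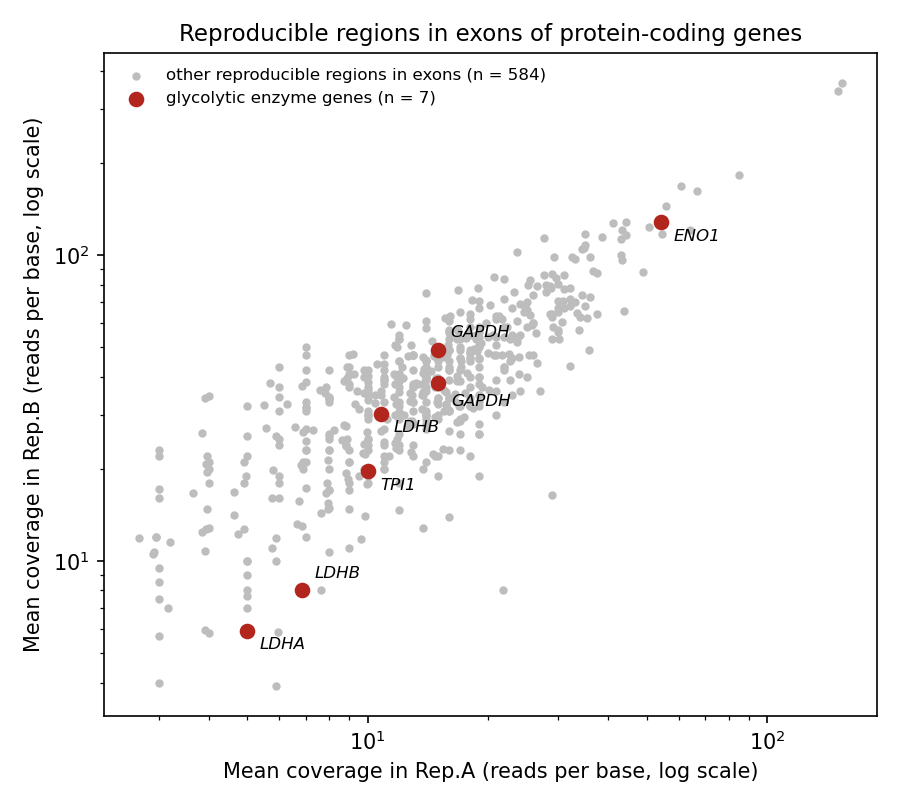
Mean coverage in Rep.A against Rep.B (reads per base, both axes log scale) for 591 reproducible regions in exons of nuclear protein-coding genes. The 7 regions of glycolytic enzyme genes are in red and the other 584 in grey. ENO1 (54.2 and 128) lies near the top of the cloud, GAPDH and the upper LDHB region in its middle, and LDHA and the lower LDHB region along its lower edge.

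All 7 clusters of Rep.A in these genes were found again in Rep.B (100%, Wilson 95% interval 64.6% to 100%), beside 741 of 889 clusters in protein-coding genes (83.4%). Of the 9 clusters of Rep.B, 7 were found again in Rep.A (77.8%, 45.3% to 93.7%), beside 741 of 1185 (62.5%). The intervals cover counting error of the clusters only, and neither variation between libraries nor dependence among clusters. No molecular identifiers are described for these libraries. With so few clusters both intervals are too wide to tell the list from the whole series.

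The composition of the regions is given beside that of the exonic regions. Coding sequence held 4 of the 7 (57.1%, 25.0% to 84.2%), beside 357 of 591 exonic regions (60.4%). CATC or CACC occurred in 4 of 7 (57.1%, 25.0% to 84.2%), beside 418 of 591 (70.7%). More than 1 position with transitions was found in 2 of 7 regions (28.6%), beside 151 of 591 (25.5%). A final G ended 7 of 7, beside 572 of 591 (96.8%), and a G preceded 5 of 7, beside 299 of 591 (50.6%). The clusters of both replicates had the same ends in 4 of 7, beside 470 of 591 (79.5%). With 7 regions the intervals are too wide to tell whether the list differs from the series in any of these shares. Of all windows of 22 nt in the 10 transcripts, 18.7% of 23017 held CATC or CACC, 9.51% CATC and 10.3% CACC.

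Most occurrences of the letters lay outside the sites, which make up a small part of the transcripts. The 10 transcripts held 266 occurrences of CATC or CACC, of which 10 lay in the sites. By share, 5 of the 10 sites held either, beside the 18.7% of windows of 22 nt, a difference that was not tested. The 4 genes without a cluster held 151 of them, with 59 in GPI, 41 in PKM, 28 in ALDOA and 23 in PGK1, while LDHB, with 2 sites, held 9. These counts refer to the transcript with the longest coding sequence, of 4341 nt in GPI, and could differ in other transcripts. Per 100 nt the density was highest in GAPDH at 2.65 and lowest in PGK1 at 0.478, and LDHB had 0.691.

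Since the aligner placed a read with several equal matches at a position drawn at random, clusters were next sought by sequence. This step was added after the data had been seen. Every cluster of at least 15 bases was kept if its sequence stood exactly in a transcript of the 10 genes, wherever in the genome it lay. It gave 22 clusters in Rep.A and 27 in Rep.B, which fell into the 10 sites at 31 positions. Of the positions, 22 were outside the genes, 15 of these in named processed copies. Both replicates held all 10 sites, in 6 genes. No cluster of either table matched a transcript of PKM, ALDOA, PGK1 or GPI.

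Only 28.8% of the matched coverage lay in the genes themselves in Rep.A and 44.8% in Rep.B. ENO1, TPI1, LDHB site 1 and GAPDH site 2, the 4 sites with a sequence that occurs once in the genome, had all of theirs in the gene. An exact match of such a sequence can lie nowhere else, so these full shares follow from the matching rule and are no separate result. GAPDH site 4, the weakest site, had none in the gene in either replicate. Its clusters lay outside annotated genes at 2.83 in Rep.A and 4.63 in Rep.B, at different positions. The one in Rep.B covered 16 bases that occur 23 times in the genome, so its assignment to GAPDH is weak. It lay 65 bases from the annotated span of GAPDHP1, a GAPDH copy. The one in Rep.A, at chr1:119596086-119596109, also lay near a GAPDH copy, GAPDHP33, annotated from position 119596167. Whether either cluster belongs to the copy near it was not tested.

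**Figure D4:**
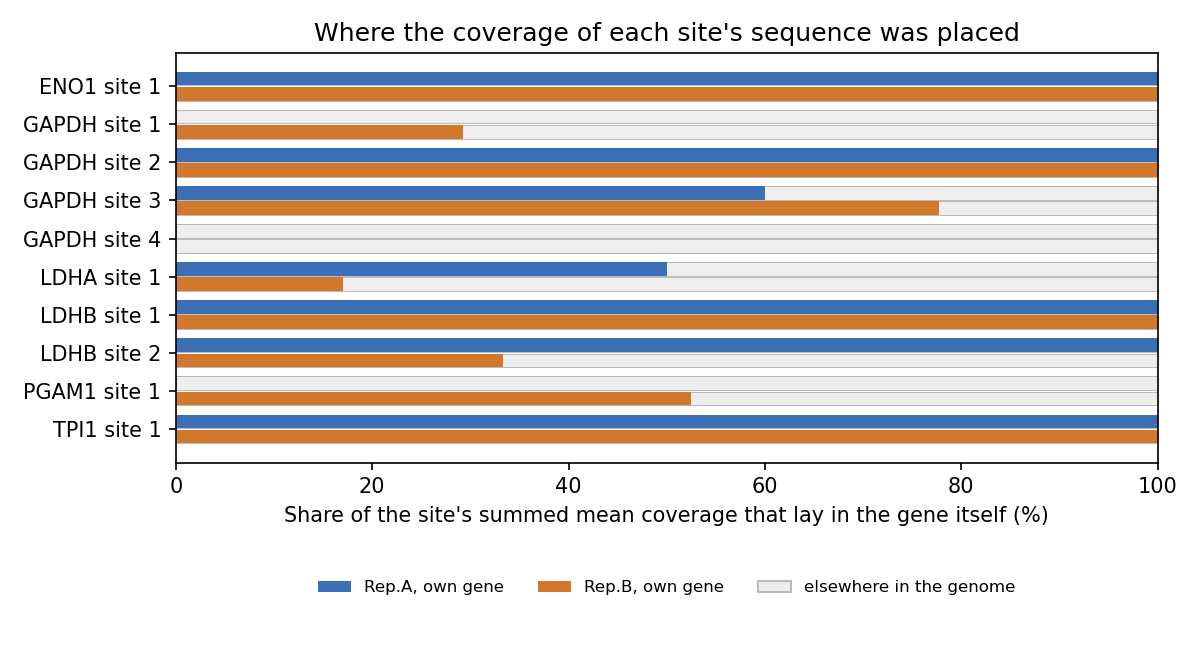
Share of each site's summed mean coverage (%) that lay in the gene itself, with Rep.A in blue, Rep.B in orange and the rest, elsewhere in the genome, in grey. ENO1, TPI1, LDHB site 1 and GAPDH site 2 are full bars in both replicates, as the matching of sequences without copies requires. GAPDH site 1 has 0% in Rep.A and 29.3% in Rep.B.

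GAPDH site 1 made up most of the matched coverage, 62.8% in Rep.A, against 68.7% in Rep.B. Its sequence carried clusters at 12 positions: the gene and 11 processed copies. Summed over them the coverage was 255 in Rep.A and 830 in Rep.B, a log2 difference of 1.70. Of the copies, 8 had a cluster in Rep.A, at 7.48 to 85 with a median of 23.9, and 9 in Rep.B, at 5.7 to 87.7 with a median of 67. Only 6 of the 11 had clusters in both. GAPDHP46 had 37 in the first replicate and 78 in the other, and GAPDHP51 had 32.9 and 77.8. GAPDHP20 had 21.6 and 84.7, GAPDHP70 22.95 and 67, and GAPDHP40 24.8 and 57. GAPDHP29 carried the highest value of Rep.A, 85, and no cluster in Rep.B, while GAPDHP1 carried 87.7 in Rep.B and none in Rep.A. The replicates thus differed in where this sequence was placed, although both held it. How many of the reads came from GAPDH mRNA was not tested.

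**Figure D5:**
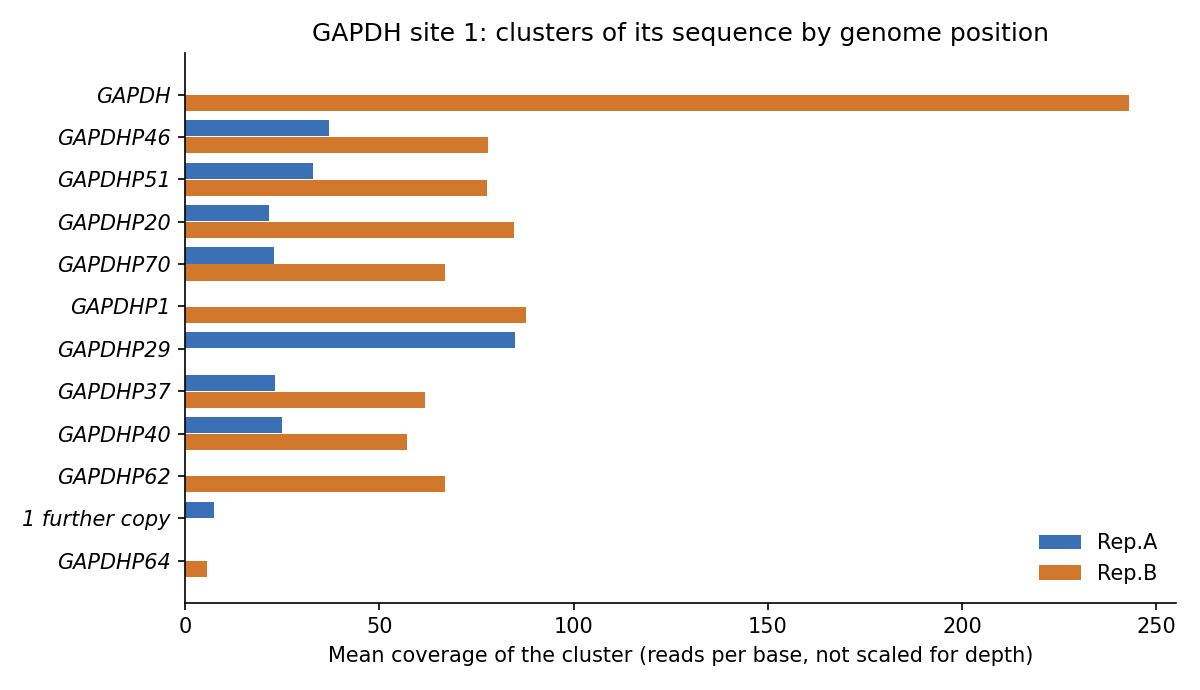
Mean coverage (reads per base) of the clusters that hold the sequence of GAPDH site 1, for the gene and 11 processed copies, with Rep.A in blue and Rep.B in orange and no bar where no cluster was called. The gene has 243 in Rep.B and no cluster in Rep.A, where 8 copies had one.

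GAPDH site 3, in contrast, had clusters at the gene and at both copies in each replicate. The sites of LDHA, LDHB site 2 and PGAM1 had clusters at some positions in 1 replicate only. The LDHA sequence lay at 4 positions. Antisense to MMS19 it had 5 in Rep.A and 11 in Rep.B. In LINC03036 it had 11 and antisense to DNAH6 6.92, both in Rep.B alone. With LDHA itself the sum was 10 in Rep.A, against 34.8 in Rep.B, a log2 difference of 1.80, beside 0.24 for the gene alone. LDHB site 2 had a further cluster in LDHBP2, at 16 in Rep.B only, which brought its sum to 24 and its log2 difference to 1.81, beside 0.22 for the gene alone. For both enzymes the difference of the sums was above the shift of the series, and that of the gene was under it. These are unlike measures. The shift is over clusters called in both replicates, while the sums also count positions called in Rep.B alone, which raise the difference. The part of the copies was not tested.

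The PGAM1 sequence gave clusters in both replicates once copies were counted. PGAM1P8 had 2.82 in Rep.A and 9.33 in Rep.B, a position outside genes on chromosome 12 had 5.65 and 7.65, and PGAM4 had 7.65 in Rep.A. The sums were 16.1 and 35.7. In Rep.B, PGAM4 and a second position on chromosome 12 also had clusters of 14 bases, at 8 and 26, which were under the minimum of 15 bases, and with them the sum of Rep.B was 69.7. Those 14 bases occur at 32 positions in the genome. Over the 10 sites the log2 difference of the sums had a median of 1.34 and ran from 0.71 for GAPDH site 4 to 1.81 for LDHB site 2.

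By name, GENCODE lists 104 pseudogenes of the 10 genes, all but 1 GAPDH copy annotated as processed: 65 of GAPDH, 13 of PGAM1, 6 of LDHA, 5 of PKM, 4 each of ENO1 and TPI1, 3 of LDHB, 2 each of ALDOA and PGK1 and none of GPI. A cluster overlapped 10 of them in Rep.A, against 11 in Rep.B, and 8 held 9 reproducible regions. No share over all pseudogenes stands beside these counts, so they do not tell whether the copies differ from other pseudogenes. GAPDH copies held 8 of these regions and PGAM1P8 the other. Within their annotated spans, the copies of ENO1, TPI1, PKM, ALDOA, PGK1 and LDHA carried no cluster. Clusters of the LDHA site did lie near 2 LDHA copies. The one in LINC03036, at chr10:118932327-118932349, was near LDHAP5, annotated from 118932674. The one antisense to DNAH6, at chr2:84776215-84776238, was near LDHAP7, annotated from 84777259. Whether these clusters belong to the copies was not tested.

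Other genes of glucose metabolism were counted in the same way, beside the 3.32% of all protein-coding genes with a reproducible region and without a test, since these lists too were chosen with results known. Of 22 other isozymes of the pathway, such as the hexokinases and phosphofructokinases, only PGAM4 had clusters, which overlapped in both replicates, with the sequence it shares with PGAM1. Of 11 genes of transport and control, BSG, the chaperone of the lactate transporters, had a reproducible region in coding sequence, at 19 in Rep.A, against 43 in Rep.B. Its sequence, shown for its run of CATC and CACC letters, stands at chr19:581538-581558 and occurs once in the genome.
BSG: tCACCATCATCttCATCtacg

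SLC2A3, a glucose transporter, had a cluster in Rep.B alone, at 4, in a sequence with 8 copies. Of 21 genes of the pathways that meet glycolysis, 3 had reproducible regions, all in coding sequence. PDHA1, of the pyruvate dehydrogenase complex, had 16 in Rep.A and 45 in Rep.B. MDH2, the mitochondrial malate dehydrogenase, had 15.7 and 32.5. TKT, the transketolase of the pentose phosphate pathway, had 12 and 35.7. No cluster was found in 21 of the 22 isozymes and in 9 of the 11 transport and control genes.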

How the data were processed

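YB-1 PAR-CLIP clusters of wild-type HEK293T cells were analysed, with 2 replicates that the methods describe as independent. The submitters' processing notes name cutadapt 2.10 and Bowtie 1.0.0 with hg38; the aligner setting reports 1 random position for a read with several best matches, and the steps described for PAR-CLIP list no removal of duplicate reads. The general sequencing methods name deduplication with seqkit, and whether it applied to these libraries is not settled by the sources used here. The authors called clusters in each replicate with wavClusteR. Mean coverage, as deposited, is a signal: the average number of reads over the bases of a cluster, with no scaling to library size. The deposited numbers of T-to-C transition positions and T bases are counts, the deposited crosslinking efficiency is a fraction, and the deposited log odds are a score.

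Genes were assigned from GENCODE release 44. Regions were placed in the transcript with the longest coding sequence. All 1382 and 2011 cluster sequences equalled hg38. Exact copies were counted on both strands. Percentiles and shares refer to 591 reproducible regions of at most 60 bases in exons of nuclear protein-coding genes. Mitochondrially encoded genes were left out of them. No test was run, since there was 1 condition. All 10 genes are named, of the other lists those with a cluster (1 is not reported here), and of processed copies those with the highest mean of both replicates. Any other copy was named after its values were seen. The members and lists were chosen with earlier results of these data known. The overlap step was tested on simulated data and found 373 of 373 planted overlaps among 600 clusters. Python 3.11.15, pandas 2.3.3, SciPy 1.17.1 and matplotlib 3.10.9 were used.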

Additional observations from a re-analysis of the deposited data

How the results depend on the processing

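Of 49 alternatives over 7 results, 44 left the value within 1.5 times the count, within the interval of the share, or within 1 SD of the median difference. With only sequences that occur once in the genome, 4 regions in 4 genes were left of 7 in 5. With only clusters whose relative log odds reached the median of their replicate, 4 regions in 3 genes were left. The median log2 difference of Rep.B minus Rep.A of 1.24 became -0.15 after the log2 ratio of mapped reads of 1.40 was subtracted, and in place of coverage the relative log odds differed by a median of 0.0135. From the clusters of each replicate alone, the genes ranged from 5 to 6, the regions from 7 to 9, and both the coding share and the CATC or CACC share from 55.6% to 57.1%. A minimum reciprocal overlap of 50%, exons only, any transcript, a mean coverage of at least 10, 10 added bases on both sides, and copies taken by sequence moved nothing past these limits, nor did the 5 alternatives added after seeing the data. No paired analysis was possible because there was 1 group. Depth and 2 replicates limit the list: mean coverage of 5 to 8 in LDHA and LDHB site 2 is near the lowest of the exonic regions, and the absence of a cluster in PKM, ALDOA, PGK1 or GPI says only that none was called at this depth.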
